A study of Homo sapiens with 2 samples.

Results

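The lysyl oxidases and the collagen hydroxylases were examined in NCI-H460 cells after knockdown of CYP4F11. These are the 10 genes LOX, LOXL1, LOXL2, LOXL3, LOXL4, PLOD1, PLOD2, PLOD3, P4HA1 and P4HA2, taken by symbol from a table of 58735 genes, and all 10 were found. NCI-H460 is a human large cell lung carcinoma line, labelled as coming from lung and pleural effusion. A siControl library, whose treatment label gives transfection without an siRNA against CYP4F11 and whose genotype label is WT, was compared with a siCYP4F11 library, whose cells received the siRNA against CYP4F11 with a lipid reagent and whose genotype label is CYP4F11 knockdown. The 24 h given for transfection is the only time point, and both libraries carry the same batch label. The series title names NCI-H460 and the design text NCI-H469. There was 1 library per group, so no difference below has a replicate check, no p-value was computed, and the siRNA cannot be told apart from any other difference between the 2 cultures. The 10 genes were chosen by their known function with the count ratios of these same libraries in view, so those ratios are given as a description.

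Collagen and elastin are modified in steps that these enzymes carry out. Inside the endoplasmic reticulum, prolyl 4-hydroxylases convert proline to hydroxyproline, which stabilises the collagen triple helix, and lysyl hydroxylases convert lysine to hydroxylysine, the site of collagen glycosylation and of the more stable crosslinks. Both are oxygenases that need iron, 2-oxoglutarate, oxygen and ascorbate. Outside the cell, the copper-dependent lysyl oxidases turn lysine and hydroxylysine side chains into aldehydes, which then crosslink the fibres and stiffen the matrix. Several of these genes are known targets of the hypoxia-inducible factor HIF-1, and crosslinking enzymes are studied in lung cancer for their part in invasion.

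The libraries held 16207785 counts in siControl and 13002179 in siCYP4F11. CYP4F11, the target, had 3180 counts in siControl and 972 in siCYP4F11. Its level was 37.8% of the control, a log2 ratio of -1.40 (95% counting interval -1.51 to -1.30). Levels are given in CPM, the usual depth-scaled unit, computed here from effective library sizes. A gene is called measured where its CPM averaged over both libraries reached 1, which held for 13942 genes and for 9 of the 10 enzymes, LOXL4 being the exception. Counting intervals throughout are at 95%, by exact methods, and cover counting error only, not differences between cultures or library preparations. PCR copies of a molecule cannot be told from separate molecules here, so the intervals may be too narrow even for counting error.

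Epithelial keratins marked both libraries as a carcinoma line, with KRT8 at 1275 CPM in siControl and 1038 CPM in siCYP4F11, while CDH1, the epithelial cadherin, had 1 and 0 counts and EPCAM 6 and 8. Fibroblasts are a main source of lysyl oxidases in tissue, so their markers were summed. Of 9 fibroblast markers, 5 were measured, PDGFRA, THY1 and FAP had 0 counts in both libraries, and the sum was 77.9 CPM (siControl) and 87.2 CPM (siCYP4F11), most of it COL3A1, which was at a log2 ratio of 0.02 (-0.12 to 0.16). LUM at 0.59 (0.32 to 0.86) and DCN at 0.77 (0.01 to 1.56), both proteoglycans of fibroblast matrix, were higher in siCYP4F11 beyond counting error, and the part of this in the enzymes' values was not tested. Endothelial markers summed to 0.0619 and 0.460 CPM, leukocyte markers to 1.30 and 2.60 CPM, and alveolar and airway markers to 1.80 and 2.83 CPM, siControl first. Most of the leukocyte sum was CD14, with 20 and 33 counts, a log2 ratio of 1.01 (0.18 to 1.91). CD14 was thus higher in siCYP4F11 beyond counting error, at few reads, and its interval reaches well below 2-fold. At a mean CPM of 1 to 3, where CD14 lies, the interval lay above 0 for 5.94% of genes. PECAM1, CDH5, VWF, PTPRC, CD3E, SFTPA1, SCGB1A1 and FOXJ1 had 0 counts in both.

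Of the enzymes, LOX differed by more than 2-fold and was lower in siCYP4F11, LOXL3 was lower by a smaller margin, and PLOD2 and P4HA1 were slightly higher. The 2-fold rule used here applied to measured genes. It called a gene lower or higher where the log2 ratio reached 1 in size and the counting interval did not hold 0. By this rule 1 of the 9 measured enzymes was lower and 0 were higher, beside 1.26% of all measured genes lower and 0.703% higher. By the interval alone, 4 of the 9 were lower (LOX, LOXL3, PLOD1 and PLOD3) and 2 higher (PLOD2 and P4HA1), beside 19.2% and 18.6% of all measured genes. The median log2 ratio of the 9 was -0.09, with 4 above 0 and 5 below, against -0.01 over all measured genes, of which 50.8% lay below 0. In bulk RNA, fewer cells that express a gene and less of its RNA per cell cannot be told apart.

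Compared per kilobase of gene model, each of the 5 hydroxylases stood above each of the 5 oxidases in both libraries, by a wide margin for P4HA1, PLOD3 and PLOD1 and by a narrow one for P4HA2. The length used joins all annotated exons of a gene, 3093 bases for P4HA1 and 5671 for PLOD3. The order rests on that length, and the intervals do not cover its choice. In siControl, P4HA1 stood highest at 44.2 CPM per kilobase (42.3 to 46.0), next to PLOD3 at 41.6 (40.3 to 43.0), a ratio of 1.06 (1.01 to 1.12). By CPM alone, PLOD3 stood above P4HA1 in siControl, at 236 against 137 CPM. PLOD1 followed at 32.0 CPM per kilobase, PLOD2 at 7.96 and P4HA2 at 4.11. P4HA2 was above LOXL3, the highest oxidase, by a ratio of 1.54 (1.30 to 1.83). LOXL3, LOXL1 and LOXL2 lay together at 2.67, 2.62 and 2.37 CPM per kilobase, and the intervals of all 3 ratios between them held 1. LOX was at 0.436 CPM per kilobase and LOXL4 at 0.0339. In siCYP4F11 P4HA1 was at 49.6 CPM per kilobase (47.5 to 51.8) and PLOD3 at 37.7 (36.4 to 39.2), a ratio of 1.31 (1.24 to 1.39). PLOD1 was then at 29.9 CPM per kilobase, PLOD2 at 9.99 and P4HA2 at 4.23. Among the oxidases the order in siCYP4F11 was LOXL1 at 2.74, LOXL2 at 2.21 and LOXL3 at 1.86 CPM per kilobase. Neighbours in that order did not differ beyond counting error, with ratios of 1.24 (0.975 to 1.57) and 1.19 (0.927 to 1.53), while LOXL1 was above LOXL3 by 1.47 (1.13 to 1.92). LOX at 0.138 (0.0662 to 0.254) and LOXL4 at 0.126 (0.0462 to 0.274) had a ratio of 1.10 (0.361 to 3.67) there and could not be told apart.

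**Figure D1:**
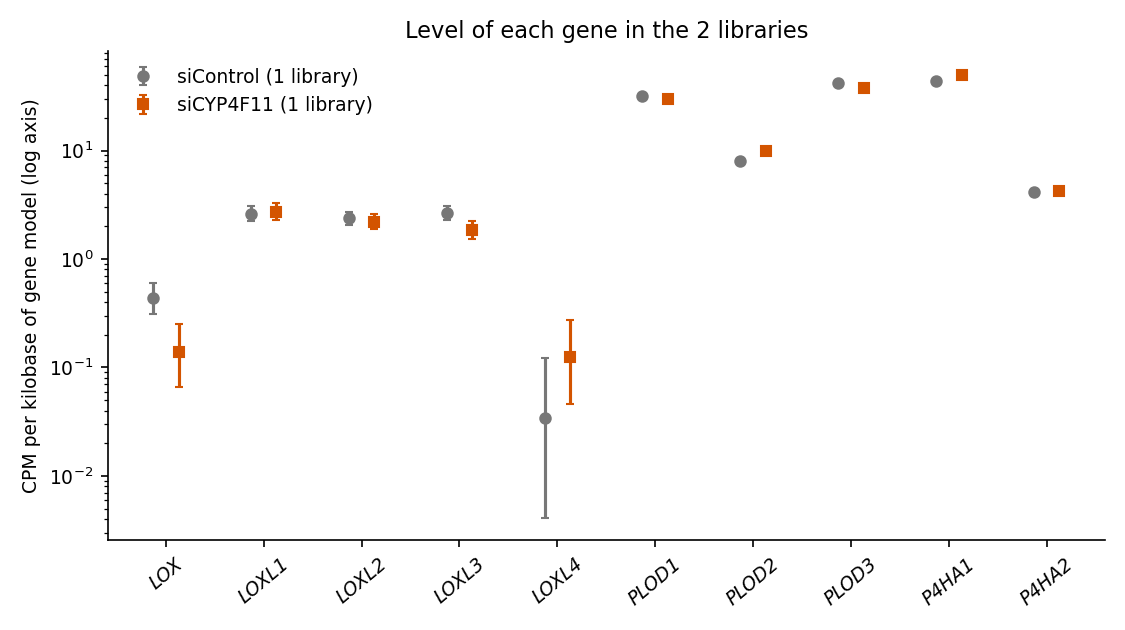
Level of each of the 10 genes in CPM per kilobase of gene model (log axis) in the siControl library (circles) and the siCYP4F11 library (squares), with exact 95% Poisson counting intervals. The hydroxylases P4HA1, PLOD3 and PLOD1 sit at the top in both libraries, and LOX is the measured gene whose 2 points are furthest apart.

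LOX encodes lysyl oxidase itself, the founding crosslinking enzyme. It had 39 counts in siControl and 10 in siCYP4F11, which is 2.42 CPM (1.72 to 3.30) and 0.766 CPM (0.367 to 1.41). The siCYP4F11 level was 31.7% of the control (14.1% to 64.7%), a log2 ratio of -1.61 (-2.82 to -0.63). The gene was thus lower, but with few reads, and the interval reaches from a small to a very large difference. At a mean CPM of 1 to 3, 6.52% of genes were called lower by the same rule, and the log2 ratios had an SD of 0.65. Within 1.5-fold of LOX's mean CPM, 20 of 1548 genes had a lower log2 ratio than LOX.

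The ratio of LOX to its relatives within a library does not depend on how the libraries are scaled. There were 0.253 LOX reads for each LOXL1 read in siControl and 0.0769 in siCYP4F11, a ratio of ratios of 0.305 (0.130 to 0.652). Against LOXL2 the ratio of ratios was 0.340 (0.147 to 0.718). Both intervals exclude 1, so LOX was lower against these 2 paralogs as well as against the library total. LOX (ENSG00000113083) is a minus-strand gene of chromosome 5, spanning 122063195 to 122078360 in GRCh38. SRFBP1, on the other strand, shares 138 exonic bases with it and had 433 and 343 counts, a log2 ratio of -0.03 (-0.24 to 0.18).

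The promoter windows of LOX, PLOD2 and P4HA1 are shown because these are the measured enzymes furthest from the control in each family, and because the core of the hypoxia response element, ACGTG or GCGTG, can be read in them. Each is the 250 bases before the RefSeq start on GRCh38.p14, all 3 on the minus strand, and capitals mark matches to either core on either strand. The windows are chr5:122078260-122078509 for LOX, chr3:146161185-146161434 for PLOD2 and chr10:73096867-73097116 for P4HA1. The LOX window shares 101 bases with exons of its gene model, the P4HA1 window 108 and the PLOD2 window 0.
LOX: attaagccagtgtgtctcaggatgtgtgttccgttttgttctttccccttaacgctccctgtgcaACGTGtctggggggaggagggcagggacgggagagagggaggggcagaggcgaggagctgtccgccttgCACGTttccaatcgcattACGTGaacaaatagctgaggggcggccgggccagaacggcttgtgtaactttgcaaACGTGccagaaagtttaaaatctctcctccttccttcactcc
PLOD2: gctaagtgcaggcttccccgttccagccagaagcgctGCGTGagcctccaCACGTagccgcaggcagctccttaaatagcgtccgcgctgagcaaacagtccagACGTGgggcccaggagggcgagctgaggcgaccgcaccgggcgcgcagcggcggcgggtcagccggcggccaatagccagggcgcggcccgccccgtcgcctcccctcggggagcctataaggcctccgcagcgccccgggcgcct
P4HA1: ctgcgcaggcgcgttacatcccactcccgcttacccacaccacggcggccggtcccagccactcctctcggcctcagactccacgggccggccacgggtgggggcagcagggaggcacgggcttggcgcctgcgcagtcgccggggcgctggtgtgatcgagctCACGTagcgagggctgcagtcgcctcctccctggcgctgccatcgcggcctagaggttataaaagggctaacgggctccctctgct

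Overlapping matches were counted as 1. LOX held 4 matches to ACGTG and 0 to GCGTG, PLOD2 held 2 and 1, and P4HA1 held 1 and 0. Of 35116 such windows in the RefSeq table, 18.5% held at least 1 ACGTG, 2.61% at least 2 and 0.0911% at least 4, while 32.2% held at least 1 GCGTG. For either core, 43.2% of windows held at least 1 match, 5.62% at least 3, as in PLOD2, and 1.89% at least 4, as in LOX. LOX has 2 further RefSeq starts, whose windows overlap each other. Each held the same 1 match to ACGTG and 1 to GCGTG. Of the 10 genes 9 had a window, and those of LOXL1, LOXL4, PLOD3 and P4HA2 held neither core, nor did 1 of the 2 windows of LOXL3. PLOD1 held 2 matches to GCGTG, and the other LOXL3 window held 1. Of the 3 genes shown, LOX was lower in siCYP4F11 and PLOD2 and P4HA1 were higher. The 3 windows shown were picked with their ratios and matches in view, so the shares are a description and lend no support. A match is a run of letters and was not tested as a binding site.

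Among the LOX-like enzymes, LOXL3, which carries scavenger receptor domains as LOXL2 and LOXL4 do, was also lower. It had 188 counts in siControl and 106 in siCYP4F11, or 11.6 CPM (10.0 to 13.4) against 8.12 CPM (6.65 to 9.82). The siCYP4F11 level was 69.7% of the control, a log2 ratio of -0.52 (-0.88 to -0.17), short of the 2-fold line. Of 1821 genes within 1.5-fold of its mean CPM, 109 had a lower log2 ratio, and at a mean CPM of 3 to 10 the interval lay below 0 for 12.1% of genes. Relative to LOXL2, LOXL3 gave a ratio of ratios of 0.745 (0.538 to 1.03), so against this paralog it was not lower beyond counting error. A ratio of ratios against LOXL1 was not computed. Per kilobase, LOXL3 over LOXL1 was 1.02 (0.818 to 1.27) in siControl, while LOXL1 over LOXL3 was 1.47 (1.13 to 1.92) in siCYP4F11. LOXL3 (chromosome 2, 74532414 to 74555690, minus strand) shares 625 exonic bases, 14.3% of its exons, with HTRA2 on the other strand, and 216 with DOK1. HTRA2, a mitochondrial protease, had 526 and 346 counts, a log2 ratio of -0.30 (-0.50 to -0.10), and DOK1, an adaptor protein of tyrosine kinase signalling, was at -0.05 (-0.25 to 0.16). No source used here gives the strand setting of the counting, so reads of such pairs may be mixed or dropped, and the part of this in the LOXL3 value was not tested.

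LOXL1, an oxidase needed for elastic fibre upkeep, had 154 and 130 counts, siControl first, or 9.54 and 9.96 CPM. Its log2 ratio was 0.06 (-0.29 to 0.41), so the 2 levels did not differ beyond counting error, and differences within that interval were not detectable at this depth. The antisense gene LOXL1-AS1, which shares 335 exonic bases with LOXL1, had 52 and 81 counts, a log2 ratio of 0.94 (0.43 to 1.48). LOXL2, an oxidase of basement membrane and fibrillar collagen, had 218 and 165 counts, a log2 ratio of -0.09 (-0.40 to 0.20). It too did not differ beyond counting error. It shares 120 exonic bases with ENTPD4 on the same strand, which was also at -0.09 (-0.27 to 0.08). LOXL4 had 2 and 6 counts, 0.124 and 0.460 CPM, where 3 counts correspond to 0.186 and 0.230 CPM. The siCYP4F11 level of LOXL4 was 371% of the control with an interval of 66.3% to 3758%, so its direction is unknown.

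Summed over the 5 oxidases, 601 counts in siControl faced 417 in siCYP4F11, a log2 ratio of -0.22 (-0.40 to -0.04). The trend of log2 ratios with GC content over all genes, described below, was not removed from this sum. By itself it gives -0.14 for LOXL1, -0.11 for LOXL2, -0.10 for LOXL3 and 0.08 for LOX. LOX supplied 5.36% of the family's CPM per kilobase in siControl and 1.95% in siCYP4F11. LOXL3 went from 32.8% to 26.3% of that sum and LOXL1 from 32.3% to 38.7%. The oxidase transcripts of these cells were thus mostly LOXL1, LOXL2 and LOXL3 in both libraries, and LOX was a minor member of the family even in siControl.

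The lysyl hydroxylases differed in direction. PLOD2, which hydroxylates the telopeptide lysines that form stable crosslinks, had 983 counts in siControl and 997 in siCYP4F11, or 60.9 CPM (57.1 to 64.8) against 76.4 CPM (71.7 to 81.3). That is 125% of the control, a log2 ratio of 0.33 (0.20 to 0.46). Of 2688 genes within 1.5-fold of its mean CPM, 129 had a higher log2 ratio, and at a mean CPM of 30 to 100 the interval lay above 0 for 25.5% of genes. PLOD1, which hydroxylates lysines in the collagen helix, had 2746 and 2074 counts, 170 and 159 CPM, a log2 ratio of -0.10 (-0.18 to -0.02). PLOD3, which also attaches sugars to hydroxylysine, had 3811 and 2794 counts, 236 and 214 CPM, a log2 ratio of -0.14 (-0.21 to -0.07). PLOD1 and PLOD3 were thus at 93.4% and 90.7% of the control. Log2 ratios of genes from a mean CPM of 100 upward had an SD of 0.18, and the counting interval excluded 0 on the lower side for 33.9% of these genes and on the higher side for 31.6%.

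**Figure D2:**
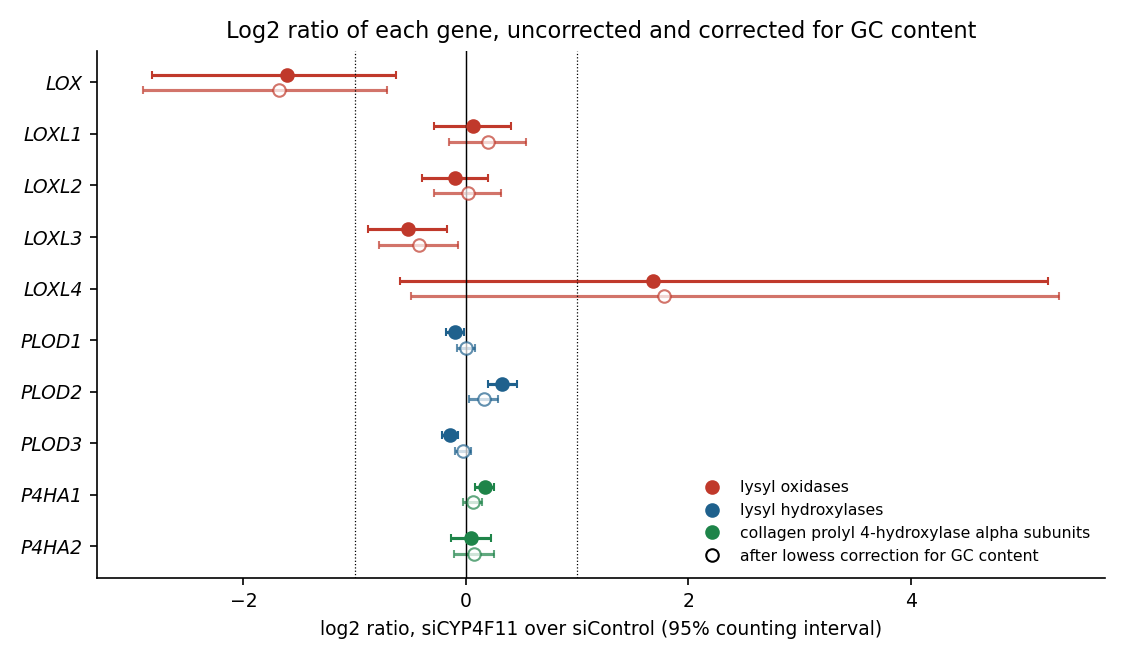
Log2 ratio of siCYP4F11 over siControl for each gene with its exact 95% counting interval, as measured (filled) and after a lowess correction for GC content (open), and dotted lines at 2-fold. LOX alone of the measured genes lies past the 2-fold line, and the filled points of PLOD2 and P4HA1 lie above 0 while those of PLOD1 and PLOD3 lie below it.

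Within the family, 0.358 PLOD2 reads were counted for each PLOD1 read in siControl and 0.481 in siCYP4F11. The ratio of ratios was 1.34 (1.21 to 1.49), and it was 1.38 (1.25 to 1.53) against PLOD3, while PLOD1 against PLOD3 gave 1.03 (0.955 to 1.11). PLOD2 was thus higher relative to both paralogs, whose proportion to each other differed by less than counting error. The trend of log2 ratios with GC content over all genes by itself gives 1.20 against PLOD1 and 1.22 against PLOD3, and with it removed the ratios of ratios were 1.12 (1.003 to 1.24) and 1.14 (1.03 to 1.26). PLOD2 supplied 9.76% of the family's CPM per kilobase in siControl and 12.9% in siCYP4F11, and PLOD3 51.0% and 48.6%. Over the 3 genes together, 7540 counts faced 5865, a log2 ratio of -0.06 (-0.11 to -0.01). The GC trend was not removed from this sum, and by itself gives -0.10 for PLOD1, -0.11 for PLOD3 and 0.17 for PLOD2.

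PLOD3 (chromosome 7, 101205977 to 101218420, minus strand) overlaps ZNHIT1, a subunit gene of a chromatin remodelling complex, where both genes start. They share 429 exonic bases, which are 7.56% of the exons of PLOD3. ZNHIT1 had 918 counts in siControl and 230 in siCYP4F11, a log2 ratio of -1.69 (-1.91 to -1.48), and so was lower by far more than PLOD3. If counting ignored the strand, reads in the shared stretch would be affected for both genes. The part of this in the PLOD3 value was not tested.

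The catalytic alpha subunits of prolyl 4-hydroxylase, which pair with protein disulfide isomerase (P4HB), were at or just above the control. P4HA1, the main isoform in most cells, had 2205 and 2003 counts, siControl first, or 137 CPM (131 to 142) against 153 CPM (147 to 160). That is 112% of the control, a log2 ratio of 0.17 (0.08 to 0.26), and 247 of 1371 genes of like level had a higher one. P4HA2, the second isoform, had 564 and 470 counts, 34.9 and 36.0 CPM, a log2 ratio of 0.04 (-0.14 to 0.22), which does not differ from 0 beyond counting error. P4HA1 supplied 91.5% of the pair's CPM per kilobase in siControl and 92.1% in siCYP4F11. Their read ratio, 3.91 and 4.26, changed by a factor of 1.09 (0.949 to 1.25), within counting error.

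**Figure D3:**
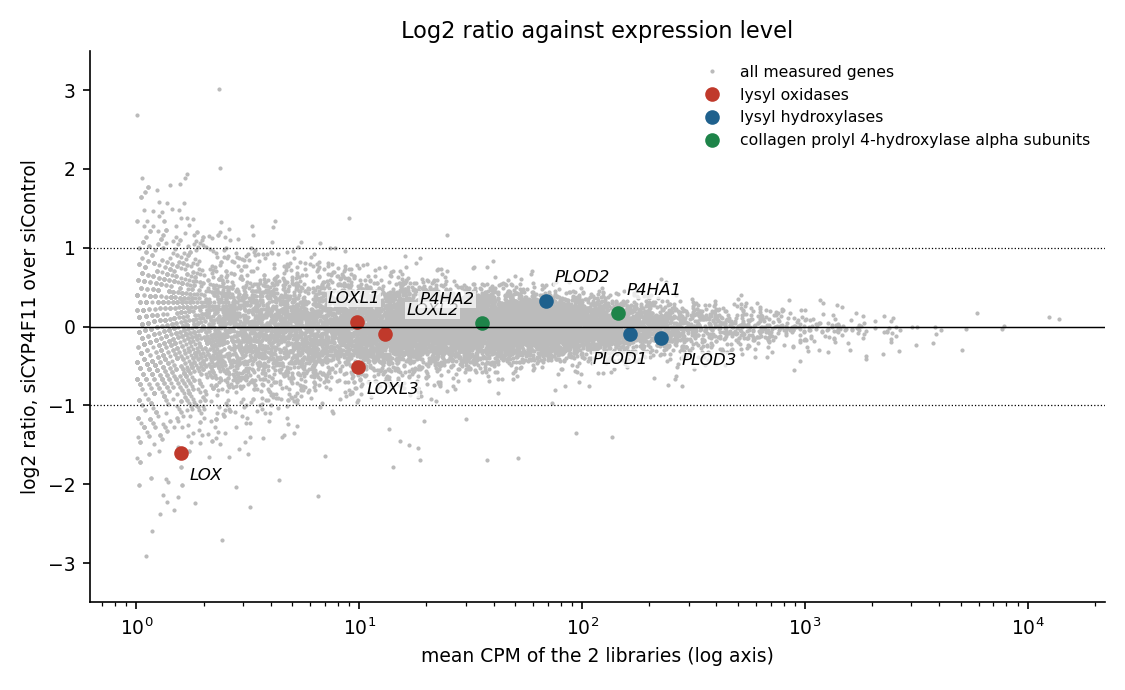
Log2 ratio of siCYP4F11 over siControl against mean CPM (log axis) for the 13942 measured genes (grey), with the 9 measured enzymes coloured by family and dotted lines at 2-fold; 2 genes fall outside the drawn range. LOX, at a mean CPM of 1.59, lies low in the wide left part of the cloud, where ratios spread most.

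The small differences of the hydroxylases ran in the order of their transcripts' GC content. Over all measured genes the median log2 ratio split into 10 equal bins by GC content was 0.13 in the most AT-rich bin and -0.14 in the most GC-rich one. PLOD2 at 36.1% GC and P4HA1 at 40.2% were above 0, and PLOD1 at 58.1% and PLOD3 at 60.0% were below. After subtracting a lowess fit on GC content the log2 ratios were 0.16 (0.03 to 0.29) for PLOD2, 0.06 (-0.03 to 0.15) for P4HA1, 0.00 (-0.08 to 0.08) for PLOD1 and -0.03 (-0.10 to 0.04) for PLOD3. Only PLOD2 of these 4 then differed from 0 beyond counting error. LOX, at 42.4% GC, was at -1.68 (-2.90 to -0.71) after the same step and LOXL3, at 57.5%, at -0.42 (-0.78 to -0.07), so both stayed lower.

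**Figure D4:**
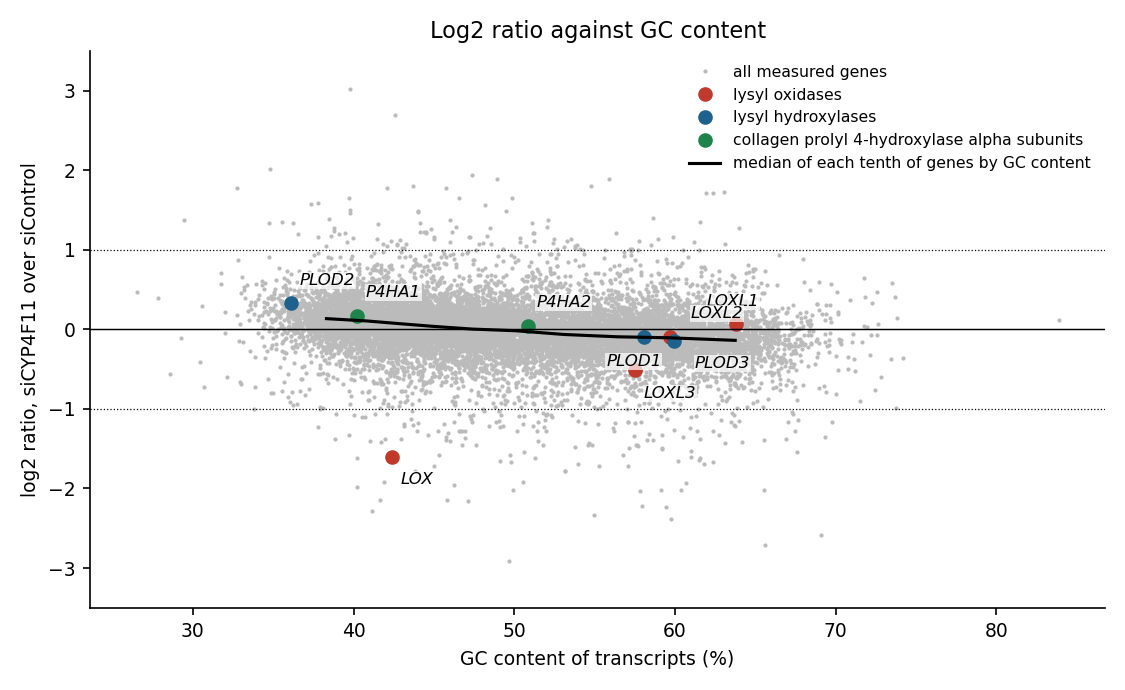
Log2 ratio of siCYP4F11 over siControl against the GC content of each gene's transcripts in percent, for measured genes with a transcript sequence (grey) and the 9 measured enzymes (coloured); the black line joins the medians of 10 equal bins of genes ranked by GC content, and 2 genes fall outside the drawn range. P4HA1, PLOD1, PLOD3 and LOXL2 lie close to the line, PLOD2 lies left of its end, and LOX and LOXL3 lie below it.

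The partner proteins of collagen modification differed in both directions. For this and each later list, the shares over all measured genes are the yardstick. By the 2-fold rule these were 1.26% lower and 0.703% higher, and by the interval alone 19.2% and 18.6%. A count of 0 by the 2-fold rule in a list this short is near those shares. By the interval alone the shares depend on level. They were 9.17% lower and 5.94% higher at a mean CPM of 1 to 3, and 33.9% and 31.6% from 100 upward. The lists were not matched for level. Of 17 partner genes, all measured, 0 passed the 2-fold rule, 3 were higher and 6 lower by the interval alone, and the median log2 ratio was -0.03. P4HB, the shared beta subunit of prolyl 4-hydroxylase, was at -0.05 (-0.08 to -0.01). P3H3, a prolyl 3-hydroxylase relative, had 1336 and 807 counts at -0.42 (-0.55 to -0.29), and COLGALT2, a collagen galactosyltransferase, had 16 and 20 counts at 0.62 (-0.39 to 1.67). Named after their values were seen, FKBP10, a prolyl isomerase that acts with PLOD2, was at -0.28 (-0.33 to -0.23), and SERPINH1, the collagen chaperone HSP47, at 0.22 (0.11 to 0.32).

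Among measured substrates and proteases 0 genes passed the 2-fold rule. Those below a mean CPM of 1 were not put to it, and several are given at the end. Of 27 collagen chain genes 20 were measured, 0 were higher and 4 lower by the interval alone, and the median log2 ratio was -0.05. COL5A1, a chain of the fibril-nucleating type V collagen, had 442 and 189 counts at -0.92 (-1.17 to -0.67), and COL12A1, of a fibril-associated collagen, was at 0.48 (-0.18 to 1.15). COL5A2, named after its value was seen and the chain gene with the most counts, had 51533 and 41548 counts at 0.00 (-0.02 to 0.01). Of 9 procollagen processing genes 4 were measured, 1 was higher (PCOLCE2, a relative of PCOLCE, at 0.24, 0.00 to 0.48) and 1 lower by the interval alone, and the median log2 ratio was 0.18. FURIN, a proprotein convertase, had 1694 and 974 counts at -0.49 (-0.61 to -0.38), PCOLCE, an enhancer of C-propeptide removal, was at 0.55 (-0.16 to 1.28), and BMP1, the protease that cuts the LOX propeptide, named after its value was seen, was at 0.13 (-0.10 to 0.36).

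Among elastic fibre genes, EFEMP2 was lower. EFEMP2 encodes fibulin-4, which binds LOX and brings it to elastin, and had 37 counts in siControl and 10 in siCYP4F11, a log2 ratio of -1.53 (-2.75 to -0.54). Its counts were thus as low as those of LOX and the interval as wide. At a mean CPM of 1 to 3, where EFEMP2 lies, 6.52% of genes were called lower by the 2-fold rule. A link between the EFEMP2 and LOX values was not tested. Of the 17 genes of this list 11 were measured, 1 was lower and 0 higher by the 2-fold rule, 4 lower and 2 higher by the interval alone, and the median log2 ratio was -0.23. ELN, the elastin gene itself, named after its value was seen, had 6 and 0 counts and was not measured.

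Copper reaches lysyl oxidases through the transporter ATP7A in the secretory pathway, and ATP7A was at 0.14 (-0.06 to 0.34). Its paralog ATP7B was lower, with 83 and 31 counts at -1.10 (-1.76 to -0.50). At a mean CPM of 3 to 10, where ATP7B lies, 1.23% of genes were called lower by the 2-fold rule. Of 9 copper and ascorbate genes 7 were measured, 1 was lower and 0 higher by the 2-fold rule, 3 lower and 1 higher by the interval alone, and the median log2 ratio was -0.14. SLC31A1, the copper importer at the cell surface, named after its value was seen, was at 0.15 (0.07 to 0.23).

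Genes of the pathways known to control these enzymes had medians near 0. Of 9 genes of the HIF pathway and oxygen-sensing hydroxylases, 0 passed the 2-fold rule, 3 were higher and 1 lower by the interval alone, and the median log2 ratio was 0.02. EGLN2, a HIF prolyl hydroxylase, had 53 and 25 counts at -0.76 (-1.53 to -0.07), and its paralog EGLN3 had 108 and 127 at 0.54 (0.16 to 0.92). Of 23 hypoxia-inducible genes outside the enzyme families, 0 passed the 2-fold rule, 4 were higher and 6 lower by the interval alone, and the median was -0.04. The extremes were MXI1, a MAX-binding repressor, at -0.54 (-0.77 to -0.31) and the glucose transporter SLC2A1 at -0.48 (-0.53 to -0.43), and both lay below 0.

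Of 17 TGF-beta target and pathway genes, which include matrix genes regulated along with LOX in many cells, 0 passed the 2-fold rule, 4 were higher and 6 lower by the interval alone, and the median log2 ratio was -0.08. ACTA2, smooth muscle actin, had 44 and 69 counts at 0.95 (0.39 to 1.54), and the ligand gene TGFB1 had 458 and 223 at -0.73 (-0.97 to -0.50). Of 16 other 2-oxoglutarate oxygenases, relatives of the hydroxylases by chemistry, 13 were measured, 0 passed the 2-fold rule, 1 was higher and 2 lower by the interval alone, and the median was -0.03. JMJD4, a lysyl hydroxylase of a translation factor, was at -0.46 (-0.83 to -0.11), and TMLHE, of carnitine synthesis, at 0.37 (0.13 to 0.61).

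**Figure D5:**
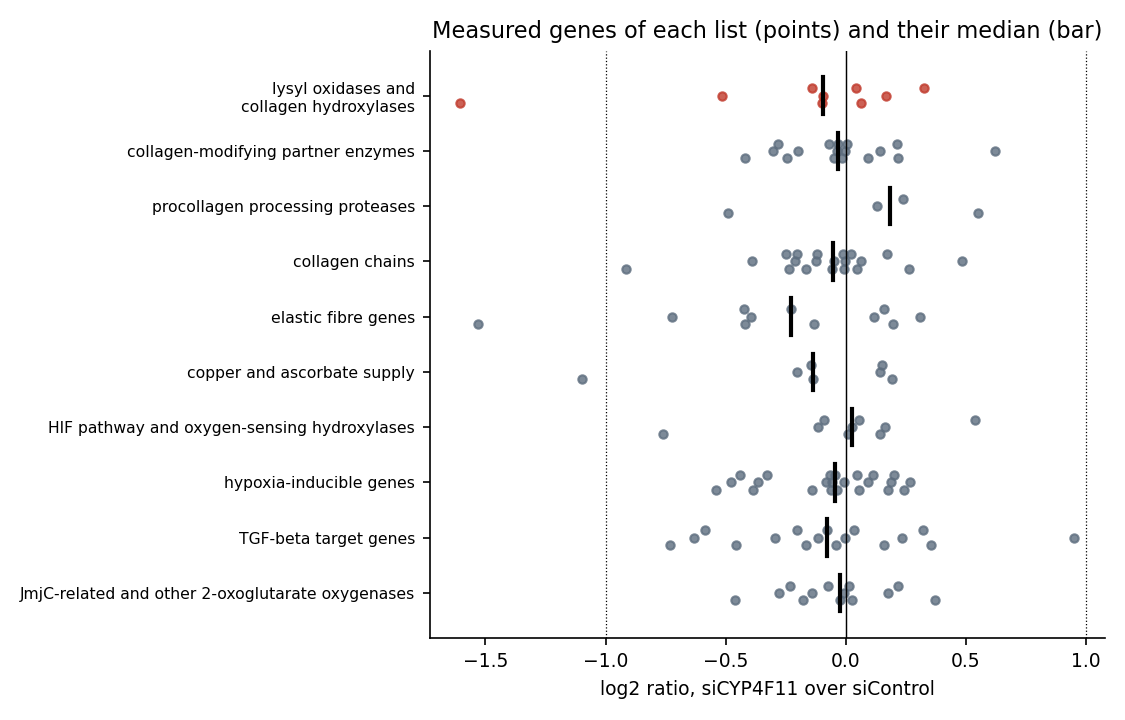
Log2 ratio of siCYP4F11 over siControl for the measured genes of each list (points) with the list's median (bar) and dotted lines at 2-fold; the red points are the 9 measured enzymes. Past the 2-fold line lie LOX, EFEMP2 and ATP7B, all lower in siCYP4F11, and the medians run from -0.23 for elastic fibre genes to 0.18 for procollagen processing genes.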

How the data were processed

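Poly-A RNA from 1 siControl and 1 siCYP4F11 library was sequenced after strand-specific library preparation by the dUTP method, per the labels' protocols. The authors deposited 1 table of whole-number read counts per gene, not normalised, with the length of each gene model. Tools listed in the submitters' processing notes are HISAT2 2.2.1, fastp, edgeR 4.0.16 and featureCounts 2.0.6, with the build GRCh38. No source used here gives their roles, parameters or strand setting. All 58735 gene identifiers and symbols matched GENCODE 29, which supplied exons and transcript GC content. The number of other sample columns in the table was 0.

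Effective library sizes came from the TMM method of edgeR 4.0.16 in R 4.3.3. For the log2 ratio 0.5 was added to each count, and its interval was derived by the exact Clopper-Pearson method from the share of a gene's reads that fell in siCYP4F11. Levels have exact Poisson intervals, ratios of 2 genes' levels in 1 library a Clopper-Pearson interval, and ratios of ratios a conditional odds ratio. edgeR's quasi-likelihood test needs replicates and was not run. Gene length was used for CPM per kilobase only. Promoter windows are from RefSeq. All 186 list entries were found by symbol. Named genes were the enzymes, CYP4F11, genes with exons overlapping an enzyme's, and of each list up to 4 genes past the 2-fold rule, or else the 2 with the largest log2 ratio in size. The enzymes and lists were chosen with earlier results of these data known. Alternatives were total counts, upper-quartile and DESeq2 1.42.0 library sizes, 2 added to each count, other filters and thresholds, means, and a lowess correction on GC content with a span of 0.3. The 2-fold rule and its interval were run on simulated Poisson counts with planted folds. Those counts hold no variation between cultures, so they cannot show how the rule behaves between 2 unreplicated cultures. Python 3.11.15, scipy 1.17.1 and statsmodels 0.14.6 were used.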

Additional observations from a re-analysis of the deposited data

How the results depend on the processing

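LOX stayed below -1 under each scaling and correction run, from -1.68 with the GC correction to -1.47 with 2 added to each count. The number of enzymes called lower went from 1 to 0 with a filter at a mean CPM of at least 5, which removes LOX, and to 0 when the whole interval had to lie past the 2-fold line. With the GC correction the interval excluded 0 for 2 enzymes on the lower side in place of 4, and for 1 on the higher side in place of 2, since PLOD1, PLOD3 and P4HA1 then lay within counting error. The median of the measured enzymes was -0.09, and it was 0.02 with the GC correction, -0.03 with no filter or with a mean CPM of at least 5, and -0.21 as a mean. Other library scalings moved each enzyme's log2 ratio by at most 0.012 and changed 0 signs. Of 9 list medians, 2 changed sign with the GC correction, both staying near 0, and 1 as a mean. CYP4F11 lay between -1.40 and -1.36 under each alternative run for it. No paired analysis was possible because each group has 1 library. Depth limits LOX and LOXL4 most, and 1 library per group limits every value.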

Other observations

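The procollagen N-proteinases, which remove the amino-terminal propeptide before fibrils form and crosslinking begins, lay below a mean CPM of 1 and outside the measured set, and are named after their values were seen. ADAMTS2 had 8 counts in siControl and 0 in siCYP4F11, ADAMTS14 had 11 and 1, and ADAMTS3 had 2 and 11. Among collagen chains below the same limit, COL13A1 had 8 counts in siControl and 0 in siCYP4F11. COL11A2, a chain of a cartilage-type fibrillar collagen, had 0 and 10, while COL11A1 had 5 and 1. The other chains below the limit were COL1A2 with 4 and 0, COL5A3 with 4 and 2, COL8A2 with 0 and 3, and COL17A1 with 2 and 4. By counting error alone, the log2 interval lay below 0 for ADAMTS2 and COL13A1 (both up to -0.47) and for ADAMTS14 (up to -0.37). It lay above 0 for ADAMTS3 (from 0.57) and COL11A2 (from 1.47), and held 0 for the other chains named here. Proteinases and chains alike thus held genes of both directions, at counts too low for the size of a ratio to be of use. No share over genes of like level was computed below the measured limit.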
